A study of Mus musculus with 14 samples.

Results

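The 9 genes described here encode the peroxisome proliferator-activated receptors (Ppara, Ppard and Pparg), the retinoid X receptors (Rxra, Rxrb and Rxrg) and the CCAAT/enhancer-binding proteins of adipogenesis (Cebpa, Cebpb and Cebpd). They were taken by gene symbol from a table of 55471 mouse genes, in which all 9 were found, and all 9 passed the filter on low counts that left 15949 genes for testing. RNA had been sequenced from brown adipose tissue (BAT), the fat depot that burns lipid to make heat. The 14 libraries formed 4 groups, namely AdC3KO at 4 °C (n = 4), WT at 4 °C (n = 4), AdC3KO at 30 °C (n = 3) and WT at 30 °C (n = 3). AdC3KO mice lacked CLSTN3B, a protein of the Clstn3 locus, in adipocytes, and WT mice were the wild type. Which promoter drove the deletion is not given in the sources used here. Mice of all groups were males 10 weeks old and had been held at thermoneutrality (30 °C) for 2 weeks, and those of the 4 °C groups were then kept in the cold for 6 h.

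PPARs are nuclear receptors that bind fatty acids and their derivatives, and they act on DNA as heterodimers with an RXR. In the differentiation of fat cells C/EBPβ and C/EBPδ appear early and switch on C/EBPα and PPARγ, which then maintain the mature adipocyte. PPARγ is the receptor of fat storage, PPARα is known for driving fatty acid oxidation and is abundant in brown fat, and PPARδ is widely expressed. In brown adipocytes adrenergic stimulation in the cold raises cAMP, a signal that is known to induce Cebpb through the factor CREB.

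Cold was set against thermoneutrality in both genotypes, and AdC3KO against WT at both temperatures. In the cold the C/EBP family turned over. Cebpa was 6.46-fold lower in AdC3KO and 4.70-fold lower in WT, Cebpb was 7.69-fold higher in AdC3KO and 6.58-fold higher in WT, and Cebpd was 4.76-fold higher in AdC3KO and 4.91-fold higher in WT. Pparg rose 1.80-fold in AdC3KO and 1.85-fold in WT. The RXR genes moved little, and no gene of the 9 differed between AdC3KO and WT past the threshold at either temperature.

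The promoters of Cebpa and Cebpb, which moved in opposite directions, and the most downstream of the 3 Pparg windows in the table, for the PPAR gene that rose, are printed here. Each sequence holds the 250 bases before a transcription start, 5′ to 3′, from the RefSeq promoter table of GRCm38.p6. All 3 genes lie on the plus strand. Capitals mark matches, on either strand, to the core of the cAMP response element (TGACG), the C/EBP element (TTGCNNAA) or the TATA box (TATAAA). The Cebpa window is chr7:35119043-35119292, the Cebpb window chr2:167688665-167688914 and the Pparg window chr6:115421816-115422065.
Cebpa: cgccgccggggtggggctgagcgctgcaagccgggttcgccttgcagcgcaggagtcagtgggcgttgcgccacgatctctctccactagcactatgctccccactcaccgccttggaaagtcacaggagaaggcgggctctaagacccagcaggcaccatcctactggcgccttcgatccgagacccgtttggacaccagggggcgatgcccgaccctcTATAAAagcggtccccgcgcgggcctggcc
Cebpb: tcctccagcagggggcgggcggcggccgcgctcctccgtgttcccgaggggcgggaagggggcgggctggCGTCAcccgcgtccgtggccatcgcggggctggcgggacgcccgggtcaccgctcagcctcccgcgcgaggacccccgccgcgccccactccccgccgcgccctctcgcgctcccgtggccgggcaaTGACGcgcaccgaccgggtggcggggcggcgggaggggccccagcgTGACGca
Pparg: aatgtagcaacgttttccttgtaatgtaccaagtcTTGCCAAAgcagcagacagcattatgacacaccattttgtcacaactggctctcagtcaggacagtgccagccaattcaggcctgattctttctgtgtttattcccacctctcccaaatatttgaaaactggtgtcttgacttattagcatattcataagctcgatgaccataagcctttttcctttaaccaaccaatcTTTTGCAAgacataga

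The Cebpb window holds 3 matches to the CREB core, whose leftmost bases lie 180, 53 and 7 bases before the start, and none to the other motifs. The Cebpa window holds a TATA box 30 bases before its start and no other match. The Pparg window holds the C/EBP element at 215 and 16 bases before the start and no other match. The other two Pparg windows hold no C/EBP element, and the second of them holds a TATA box. The CREB core also stands in a window of Ppara and in a window of Rxrb, genes that did not rise in the cold, and the C/EBP element in a window of Rxrg. Among 32851 windows of all genes, 17.8% hold the CREB core, 9.56% the C/EBP element and 12.4% the TATA box. The full cAMP response element (TGACGTCA), which contains the core, is in 1.55% of all windows, and the PPAR/RXR element, a direct repeat of AGGTCA with a single base between the copies, in 0.0335%. Of the 9 genes, 8 had a window in the table, 13 windows in all, and none of the 13 holds either of these longer motifs. Cebpd had none in the table. A match in these letters is a description of the window and not a measured binding site. The 3 windows differ in base composition, with 66.4% G and C for Cebpa, 81.6% for Cebpb and 40.8% for Pparg, against a median of 52.4% over all windows.

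The libraries held 19932180 to 29026445 gene counts. Values are CPM, the counts of a gene scaled to a common library size with TMM factors, and levels of different genes are compared only per kilobase of exon. Differences are log2 fold changes with their standard error (SE), tested in edgeR (quasi-likelihood F-test), and a gene is called at a Benjamini-Hochberg adjusted p below 0.05 over the 15949 genes. The targeted locus, Clstn3, was 16.9-fold lower in AdC3KO than in WT at 4 °C (65.8 ± 11.9 against 1110 ± 97.4 CPM, SD, n = 4 each, adjusted p = 2.87e-11, edgeR) and 13.1-fold lower at 30 °C (15.8 ± 1.31 against 206.6 ± 23.2 CPM, n = 3 each, adjusted p = 1.13e-09, edgeR). All 13 brown adipocyte markers were detected in each group, and their summed level was 33900 to 49000 CPM at 4 °C and 12800 to 15900 CPM at 30 °C over both genotypes. The set did not rise as a whole, and the sum follows its most abundant genes. In the cold 5 of the 13 were called higher and 4 lower in AdC3KO (median log2 difference 0.01). In WT 5 were higher and 5 lower (median -0.17). Skeletal muscle markers summed to 494.1 CPM in AdC3KO 4 °C replicate 3, 50.8 CPM in WT 4 °C replicate 2, 75.3 and 34.2 CPM in AdC3KO 30 °C replicates 1 and 2 and 212.6 CPM in WT 30 °C replicate 3, against at most 3.65 CPM in the other libraries. Interferon response genes summed to 450.2 CPM in AdC3KO 4 °C replicate 1 and 1403 CPM in WT 4 °C replicate 4, against at most 244.4 CPM elsewhere. Calls of the 9 genes that change without these libraries are named beside the gene. In bulk tissue, fewer cells of a type and less RNA per cell cannot be told apart.

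Cebpa, the C/EBP of the mature adipocyte, is a gene with a single exon block on chromosome 7 from 35119293 to 35121928 (GENCODE annotation of GRCm38). In AdC3KO it had 111.4, 68.0, 107.2 and 114.8 CPM at 4 °C, against 643.7, 629.2 and 671.3 CPM at 30 °C. In WT it had 169.7, 122.5, 125.1 and 149.2 CPM at 4 °C, against 617.9, 739.0 and 639.0 CPM at 30 °C. Every cold library lay far below every warm library, in both genotypes. The log2 difference was -2.69 (SE 0.16, adjusted p = 1.24e-09, edgeR) in AdC3KO and -2.23 (SE 0.158, adjusted p = 7.71e-09, edgeR) in WT. A log2 difference as low or lower was found for 3.13% of all tested genes in AdC3KO and for 5% in WT. Gm45091, an antisense transcript annotated on the opposite strand, shares 51 bases of exon with Cebpa. It averaged 0.171 ± 0.0383 CPM in AdC3KO libraries and 0.308 ± 0.042 CPM in WT libraries at 4 °C, against 1.69 ± 0.615 and 1.55 ± 0.165 CPM at 30 °C. The strand setting of the counting is not given in the sources used here, so reads of the shared bases cannot be assigned between them.

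Cebpb, an early C/EBP that cAMP is known to induce, is a gene of a single exon block on chromosome 2 from 167688915 to 167690418. In AdC3KO it had 275.6, 299.5, 428.8 and 340.1 CPM at 4 °C, against 42.9, 38.2 and 49.8 CPM at 30 °C. In WT it had 235.6, 317.5, 318.9 and 300.4 CPM at 4 °C, against 32.6, 43.9 and 56.9 CPM at 30 °C. The lowest cold library stood above the highest warm library by a wide margin in both genotypes. The log2 difference was 2.94 (SE 0.204, adjusted p = 1.41e-08, edgeR) in AdC3KO and 2.72 (SE 0.202, adjusted p = 3e-08, edgeR) in WT. A difference as high or higher was found for 2.07% of all tested genes in AdC3KO and for 2.44% in WT. Cebpb shares 312 of its 1504 bases of exon with Tmem189 on the opposite strand. Reads of these bases cannot be assigned here either, and the level of Cebpb per kilobase uses its full length. Tmem189, not called in the cold in either genotype, averaged 10.5 ± 0.96 CPM in AdC3KO libraries and 12.0 ± 2.05 CPM in WT libraries at 4 °C, against 12.1 ± 1.12 and 14.4 ± 1.40 CPM at 30 °C.

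Cebpd, the partner of Cebpb in early adipogenesis, lies on chromosome 16 from 15887286 to 15891031. In AdC3KO it had 21.7, 22.4, 34.8 and 19.5 CPM at 4 °C, against 4.51, 5.43 and 5.54 CPM at 30 °C. In WT it had 30.2, 19.1, 23.5 and 18.8 CPM at 4 °C, against 3.64, 4.51 and 5.77 CPM at 30 °C. The groups did not overlap in either genotype, although Cebpd remained below Cebpa and Cebpb per kilobase of exon at both temperatures. The log2 difference was 2.25 (SE 0.231, adjusted p = 5.42e-07, edgeR) in AdC3KO and 2.30 (SE 0.233, adjusted p = 5.21e-07, edgeR) in WT. Cebpd shares 562 of its 3746 bases of exon with Spidr on the opposite strand, with the same limit on reads and on its level per kilobase as for Cebpb. Spidr averaged 5.89 ± 1.45 CPM in AdC3KO libraries and 7.54 ± 1.57 CPM in WT libraries at 4 °C, against 8.56 ± 0.941 and 7.96 ± 0.337 CPM at 30 °C, and was called lower in AdC3KO (log2 difference -0.54, adjusted p = 0.0243, edgeR). Both Cebpb and Cebpd are also known from macrophages. Of 12 macrophage markers, 5 in AdC3KO and 8 in WT were higher at 4 °C and 0 were lower, none was at 0 in any group, and their sum was 278 to 507 CPM in AdC3KO and 347 to 820 CPM in WT at 4 °C, against 189 to 278 and 194 to 226 CPM at 30 °C. Neutrophil markers summed to 2.87 to 4.59 CPM in AdC3KO and 2.42 to 4.53 CPM in WT at 4 °C. At 30 °C they summed to 4.28 to 7.51 CPM in AdC3KO and 4.79 to 6.34 CPM in WT. Ly6g and Ngp were at 0 in both WT groups, and Ly6g and Mmp8 in AdC3KO at 30 °C. The part of these cells in the Cebpb and Cebpd values was not tested.

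**Figure D1:**
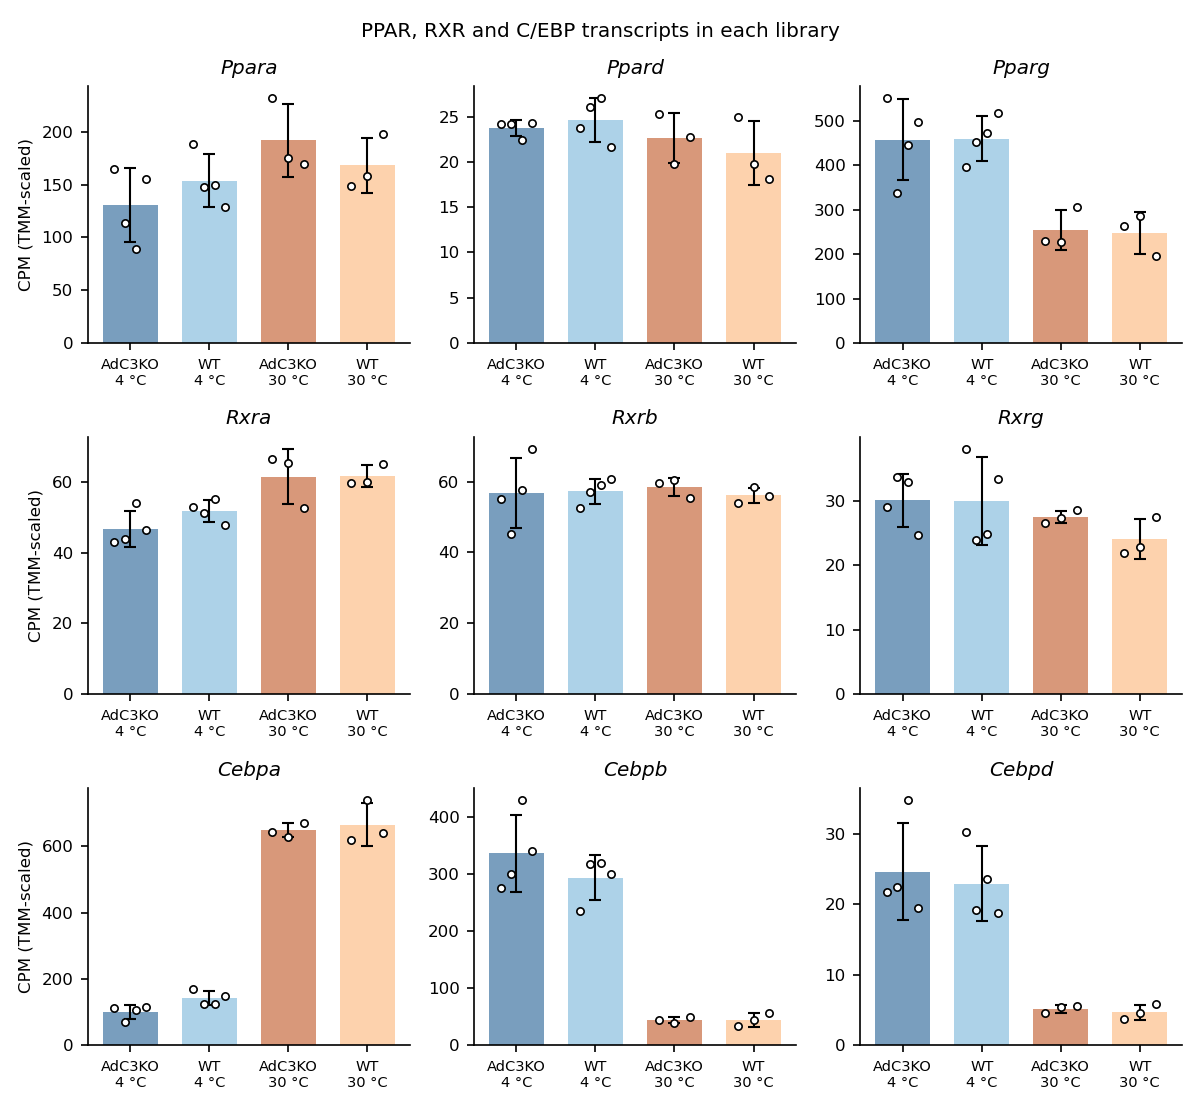
Level of each of the 9 genes (CPM with TMM scaling, linear axis from 0) in AdC3KO and WT libraries at 4 °C and 30 °C; bars are group means, error bars the SD and points single libraries (n = 4 at 4 °C, n = 3 at 30 °C). The cold libraries lie apart from the warm libraries for Cebpa (at most 169.7 against at least 617.9 CPM), Cebpb and Cebpd, and for Pparg (at least 336.2 against at most 306.7 CPM).

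Taken as a family, the 3 C/EBP genes kept a similar summed level under TMM scaling while the makeup of that sum changed. Per kilobase of exon the 3 C/EBP genes summed to 268.0 ± 49.2 CPM in AdC3KO libraries and 254.7 ± 17.2 CPM in WT libraries at 4 °C (SD, n = 4 each), against 276.3 ± 12.0 and 283.2 ± 26.9 CPM at 30 °C (n = 3 each), and the ranges overlapped in AdC3KO (230.9 to 335.0 against 265.6 to 289.3) and in WT (229.1 to 265.7 against 257.1 to 310.7). Cebpa made up 14.4% ± 3.30 of the family in AdC3KO and 21.3% ± 4.87 in WT at 4 °C, against 89.0% ± 0.93 and 89.1% ± 2.74 at 30 °C. Cebpb made up 83.2% ± 3.14 in AdC3KO and 76.2% ± 5.52 in WT at 4 °C, against 10.5% ± 0.943 and 10.4% ± 2.65 at 30 °C. Cebpd held 2.44% in both genotypes at 4 °C, against 0.499% in AdC3KO and 0.438% in WT at 30 °C. Such a share does not depend on the scaling between libraries, but a summed level does. The 3 shares of a family add up to its whole, so they and their tests depend on each other. Upper-quartile scaling moved the median log2 cold difference of all genes to -0.29 in AdC3KO and -0.27 in WT, against -0.06 and -0.03. The sums were not computed with that scaling. Cold minus warm, within genotype and averaged over both genotypes, the share of Cebpa fell by 71.2 percentage points. That of Cebpb was 69.3 points higher and that of Cebpd 1.97 points higher. In an exact permutation test of the library labels within each genotype (two-sided, 1225 arrangements) each of the 3 had p = 0.000816, the smallest this design can give, and an adjusted p = 0.00245 over the 18 shares tested by permutation.

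**Figure D2:**
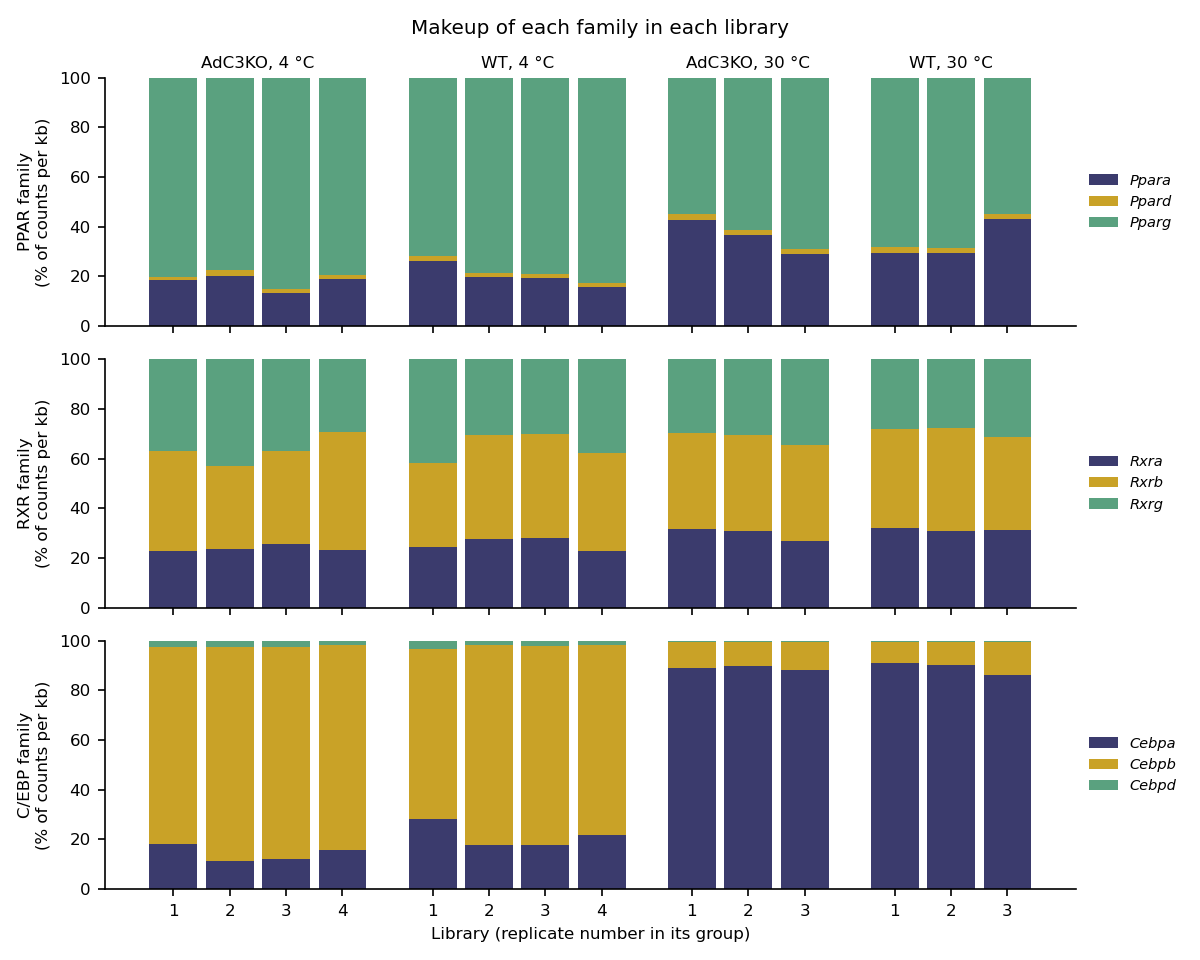
Share of each gene in its family (percent of counts per kilobase of exon) in each of the 14 libraries, grouped by genotype and temperature. In the C/EBP panel Cebpa takes 11.2% to 28.1% of the family in cold libraries and 86.0% to 91.2% in warm ones, with Cebpb filling most of the rest.

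Among the PPAR genes, Pparg rose in the cold in both genotypes. This receptor of fat storage, on chromosome 6 from 115360951 to 115490399, had 550.2, 336.2, 444.2 and 496.8 CPM at 4 °C in AdC3KO, against 228.6, 226.5 and 306.7 CPM at 30 °C. In WT it had 395.6, 451.0, 471.8 and 517.0 CPM at 4 °C, against 263.4, 284.9 and 194.8 CPM at 30 °C. No cold library was as low as a warm library of its genotype. The log2 difference was 0.85 (SE 0.173, adjusted p = 0.000509, edgeR) in AdC3KO and 0.89 (SE 0.173, adjusted p = 0.000355, edgeR) in WT. Endothelial markers moved with the cold as well, with 7 of 12 higher and 3 lower in AdC3KO and 7 higher and 4 lower in WT, none at 0, and sums of 1840 to 2120 CPM in AdC3KO and 1690 to 1910 CPM in WT at 4 °C, against 940 to 1070 and 911 to 1230 CPM at 30 °C. Their part in the Pparg values was not tested. Counts per gene do not separate the transcripts that start at its different promoters. Without the 5 libraries with muscle transcripts, which leaves 1 AdC3KO library at 30 °C whose spread is taken from the other groups, the log2 difference was 0.58 in AdC3KO and no longer called (adjusted p = 0.0937, edgeR), and 0.75 in WT (adjusted p = 0.0103, edgeR).

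Ppara, the receptor that drives genes of fatty acid oxidation, lies on chromosome 15 from 85734983 to 85802819. In AdC3KO it had 164.7, 113.7, 89.3 and 155.0 CPM at 4 °C, against 231.7, 175.1 and 169.0 CPM at 30 °C. In WT it had 188.5, 147.4, 149.5 and 128.9 CPM at 4 °C, against 148.6, 158.2 and 197.6 CPM at 30 °C. The AdC3KO groups did not overlap, by a gap of a few CPM, and the WT groups did. The log2 difference was -0.55 (SE 0.198, adjusted p = 0.0246, edgeR) in AdC3KO and -0.13 (SE 0.199, adjusted p = 0.589, edgeR) in WT. The cold responses of the 2 genotypes did not differ past the threshold for Ppara (interaction -0.42, 95% interval -1.03 to 0.18, adjusted p = 1, edgeR). The call in AdC3KO was lost without the libraries with muscle transcripts (-0.23, adjusted p = 0.462), and without AdC3KO 30 °C replicate 1, AdC3KO 4 °C replicate 2 or AdC3KO 4 °C replicate 3 (adjusted p = 0.135, 0.08 and 0.0675).

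Ppard, the widely expressed PPAR on chromosome 17 from 28232700 to 28301474, ranged only from 18.2 to 27.0 CPM over the 14 libraries. It was not called in the cold, with a log2 difference of 0.07 (95% interval -0.18 to 0.33) in AdC3KO and 0.23 (-0.03 to 0.49) in WT. In WT it was called without WT 30 °C replicate 1 (0.38, adjusted p = 0.0185, edgeR), and not without the libraries with muscle transcripts (0.10, adjusted p = 0.599). Per kilobase the 3 PPAR genes summed to 191.9 ± 37.9 CPM in AdC3KO libraries and 198.7 ± 10.8 CPM in WT libraries at 4 °C, against 139.0 ± 13.1 and 130.5 ± 10.2 CPM at 30 °C. Pparg made up 80.6% ± 3.23 of this sum in AdC3KO and 78.0% ± 4.50 in WT at 4 °C, against 61.7% ± 6.99 and 63.9% ± 7.70 at 30 °C. Ppara made up 17.7% ± 3.12 in AdC3KO and 20.3% ± 4.39 in WT at 4 °C, against 36.2% ± 6.80 and 34.0% ± 7.80 at 30 °C. Cold minus warm, within genotype, the share of Pparg was 16.5 points higher and that of Ppara fell by 16.0 points (each p = 0.000816 in the exact permutation test, adjusted p = 0.00245). A rise in the share of Pparg lowers the rest of the family, so the tests of these shares are not separate results. The share of Ppard, 1.36% to 2.54% in single libraries, fell by 0.476 points (p = 0.0098 in the exact permutation test, adjusted p = 0.0252). That call was lost without length correction (adjusted p = 0.063), and without AdC3KO 30 °C replicates 1 or 2 or AdC3KO 4 °C replicates 1 or 3 (adjusted p of 0.0931, 0.0539, 0.0514 and 0.0514).

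The RXR genes, whose products pair with the PPARs, stayed within a narrow range. Rxra, on chromosome 2 from 27676440 to 27762957, had 43.0, 43.8, 54.2 and 46.3 CPM at 4 °C in AdC3KO, against 66.6, 65.4 and 52.5 CPM at 30 °C. In WT it had 52.8, 51.1, 55.2 and 47.9 CPM at 4 °C, against 59.8, 60.0 and 65.2 CPM at 30 °C. The WT groups did not overlap, and in AdC3KO cold replicate 3 lay above warm replicate 3. The log2 difference was -0.39 (SE 0.10, adjusted p = 0.00273, edgeR) in AdC3KO and -0.25 (SE 0.10, adjusted p = 0.039, edgeR) in WT. These are small falls. Without the libraries with muscle transcripts neither was called (-0.25 with adjusted p = 0.162 in AdC3KO and -0.21 with adjusted p = 0.126 in WT), and the call in WT was also lost with DESeq2 (adjusted p = 0.0505), without the libraries high in interferon genes (adjusted p = 0.109), and without any of WT 30 °C replicates 1, 2 and 3 (adjusted p = 0.0616, 0.0644 and 0.144) or WT 4 °C replicates 2 and 4 (adjusted p = 0.0724 and 0.105).

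Rxrb, on chromosome 17 from 34031812 to 34038399, had 45.1 to 69.2 CPM in AdC3KO and 52.5 to 60.6 CPM in WT at 4 °C, against 55.5 to 60.4 and 54.0 to 58.4 CPM at 30 °C. Its log2 difference in the cold was -0.04 (95% interval -0.28 to 0.19) in AdC3KO and 0.03 (-0.20 to 0.27) in WT. Rxrg, on chromosome 1 from 167598384 to 167639623, had 24.6 to 33.6 CPM in AdC3KO and 23.8 to 38.0 CPM in WT at 4 °C, against 26.6 to 28.5 and 21.9 to 27.5 CPM at 30 °C. It was 0.13 higher on the log2 scale in AdC3KO (95% interval -0.20 to 0.45) and 0.32 higher in WT (-0.01 to 0.65), neither past the threshold. The WT value of Rxrg passed it without the libraries with muscle transcripts (0.52, adjusted p = 0.0396, edgeR), without WT 30 °C replicate 3 (0.43, adjusted p = 0.0499), and without WT 4 °C replicates 2 or 3 (0.40 each, adjusted p = 0.029 and 0.0428). The RXR genes summed per kilobase to 35.9 ± 2.19 CPM in AdC3KO libraries and 37.0 ± 2.45 CPM in WT libraries at 4 °C, against 37.9 ± 1.67 and 35.9 ± 1.99 CPM at 30 °C. Within the family the share of Rxra was 23.8% ± 1.22 in AdC3KO and 25.7% ± 2.54 in WT at 4 °C, against 29.6% ± 2.54 and 31.5% ± 0.646 at 30 °C, and it fell by 5.76 points within genotype (p = 0.000816 in the exact permutation test, adjusted p = 0.00245). The shares of Rxrg (5.43 points higher, p = 0.0424 in the exact permutation test, adjusted p = 0.0955) and Rxrb (0.328 points higher, p = 0.887, adjusted p = 0.971) did not pass, although that of Rxrg did without AdC3KO 4 °C replicate 4 (adjusted p = 0.0294).

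Counted together, 3 of the 9 genes were higher and 3 lower at 4 °C in AdC3KO, where 63% of all tested genes were called (31% higher, 32.1% lower), and 3 were higher and 2 lower in WT, where 61.4% were called (30.6% higher, 30.8% lower). The groups of 5 members did not overlap in AdC3KO, against 64.1% of all tested genes, and of 5 in WT, against 60.3%. The counts of called members are thus near the share of all genes that cold moved. The median log2 difference of the 9 was 0.07 in AdC3KO and 0.23 in WT, against -0.06 and -0.03 over all tested genes. Without the libraries with muscle transcripts, 2 were higher and 1 lower in AdC3KO, where 38.9% of all genes were then called, and 4 were higher and 1 lower in WT, where 47.4% were. The member added in WT was Rxrg, and Rxra was lost. Without the libraries high in interferon genes, 3 were higher and 3 lower in AdC3KO, where 64.3% of all genes were called, and 3 were higher and 1 lower in WT, where 62.2% were. Upper-quartile scaling, which moved the median of all genes to -0.29 in AdC3KO and -0.27 in WT, kept the sign of every called member and added Rxrb as lower in AdC3KO (-0.28, adjusted p = 0.0311).

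**Figure D3:**
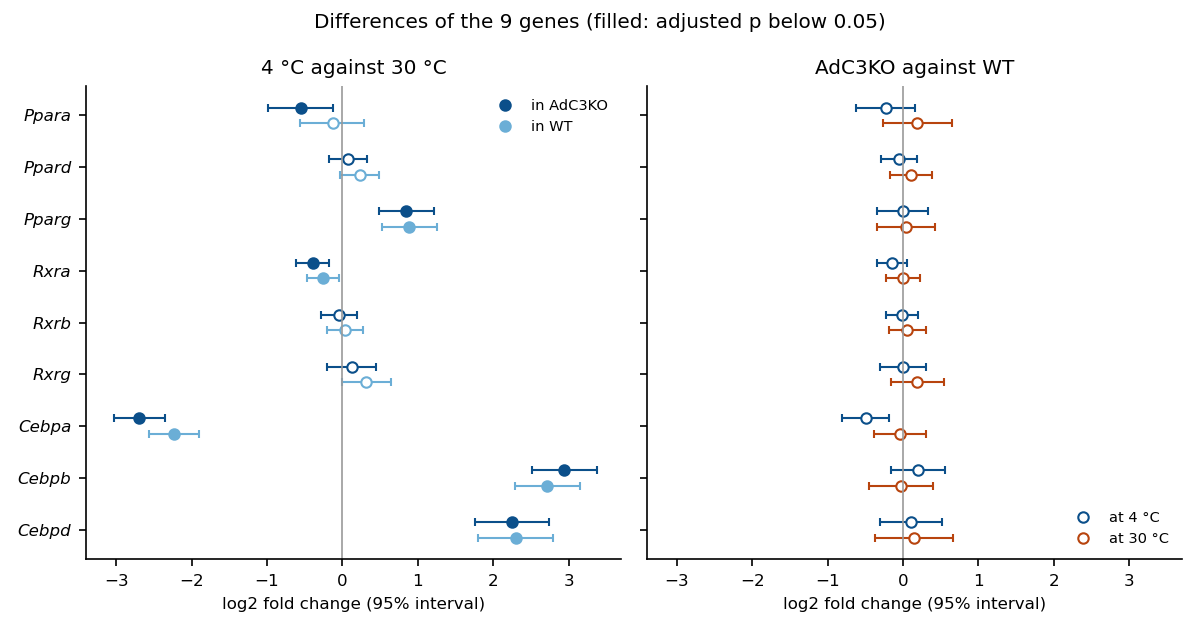
Log2 fold change of the 9 genes with its 95% interval, at 4 °C against 30 °C in AdC3KO and WT (left) and for AdC3KO against WT at 4 °C and 30 °C (right); filled points have an edgeR adjusted p below 0.05. Cebpa (-2.69 in AdC3KO, -2.23 in WT) and Cebpb and Cebpd (2.25 to 2.94) stand far from 0 in the cold, and no genotype difference is filled.

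The order of the levels, per kilobase of exon, changed with temperature. The length used is that of all annotated exons of a gene together. It is 2953 bases for Pparg and 7514 for Ppard, against 2125 and 3726 for their longest transcripts. For Cebpb (1504 bases) and Cebpd (3746 bases) both lengths are the same. Places of genes close in level, such as Cebpb and Pparg or Cebpd and Ppard at 4 °C, therefore depend on the length used. At 4 °C Cebpb came first, with 223.4 ± 44.8 CPM per kilobase in AdC3KO and 194.9 ± 26.1 in WT (n = 4 each), and Pparg followed with 154.7 ± 30.9 and 155.4 ± 17.1, with ranges that overlapped those of Cebpb. Cebpa (38.1 ± 8.26 in AdC3KO, 53.7 ± 8.44 in WT) and Ppara (34.1 ± 9.22 and 40.0 ± 6.53) came next and overlapped each other. Rxrb, Rxrg and Rxra followed, between 8.57 and 14.4 CPM per kilobase on average, of which Rxrb and Rxrg overlapped. Cebpd averaged 6.56 ± 1.84 in AdC3KO, where it overlapped Rxra, and 6.12 ± 1.42 in WT, and Ppard came last with 3.17 ± 0.118 and 3.28 ± 0.319. At 30 °C Cebpa led by far, with 245.9 ± 8.11 CPM per kilobase in AdC3KO and 252.4 ± 24.5 in WT (n = 3 each), ahead of Pparg (86.0 ± 15.5 and 83.9 ± 15.9), Ppara (50.0 ± 9.01 and 43.8 ± 6.77) and Cebpb (29.0 ± 3.88 and 29.6 ± 8.07). None of these 4 overlapped its neighbour. The RXR genes came next, of which Rxra and Rxrg overlapped, then Ppard, with Cebpd last at 1.38 ± 0.150 in AdC3KO and 1.24 ± 0.285 in WT. Among 15937 tested genes with an exon length, 6.83% stood above Cebpa in AdC3KO and 4.76% in WT at 4 °C, against 0.816% and 0.791% at 30 °C. For Cebpb it was 1.16% in AdC3KO and 1.28% in WT at 4 °C, against 6.69% and 6.60% at 30 °C.

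The loss of CLSTN3B in adipocytes left the 9 genes without a call. At 4 °C 0 of the 9 were called between AdC3KO and WT with edgeR and 0 with DESeq2, and 1 had an unadjusted p below 0.05, while 0.0502% of all tested genes were called (0.0439% higher, 0.00627% lower). That gene was Cebpa, whose 4 AdC3KO libraries (68.0 to 114.8 CPM) all lay below the 4 WT libraries (122.5 to 169.7 CPM), a separation found for 2.27% of all tested genes. Its log2 difference was -0.50 (SE 0.146, 95% interval -0.81 to -0.19, unadjusted p = 0.00364, adjusted p = 0.791, edgeR), and without AdC3KO replicate 2 it was -0.33 (adjusted p = 0.992). The next in size at 4 °C were Ppara (-0.23, 95% interval -0.63 to 0.16) and Cebpb (0.20, -0.16 to 0.56). At 30 °C 0 of the 9 were called by either tool, 0 had an unadjusted p below 0.05 and the groups of 0 did not overlap, against 0.0439% of all tested genes called (0.0376% higher, 0.00627% lower) and 7.29% without overlap. There the log2 differences lay between -0.04 for Cebpa (95% interval -0.39 to 0.31) and 0.19 for Ppara (-0.27 to 0.65) and Rxrg (-0.16 to 0.54).

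The cold response itself did not differ between the genotypes for any of the 9 genes past the threshold, with 0 called by edgeR or DESeq2, 0 with an unadjusted p below 0.05, and 0% of all genes called. The interaction, the log2 cold difference of AdC3KO minus that of WT, was -0.46 for Cebpa (95% interval -0.93 to 0.01, unadjusted p = 0.0543, adjusted p = 1, edgeR) and 0.22 for Cebpb (-0.33 to 0.78). The narrowest interval, for Rxra (-0.44 to 0.16), still holds differences of the size of its cold response. Averaged over both temperatures, the share of Cebpa in its family was 3.55 points lower in AdC3KO than in WT and that of Cebpb 3.51 points higher (p = 0.0757 and p = 0.08 in the exact permutation test within temperature over 1400 arrangements, both adjusted p = 0.138). Without WT 30 °C replicate 3, a library with muscle transcripts, both passed (adjusted p = 0.0257 for Cebpa and 0.0289 for Cebpb). At 4 °C the Cebpa shares were 18.3%, 11.2%, 12.1% and 15.8% in AdC3KO, against 28.1%, 17.7%, 17.9% and 21.6% in WT, so that the ranges overlapped. The mean Cebpa share was 14.4% in AdC3KO and 21.3% in WT at 4 °C, and 89% and 89.1% at 30 °C.

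Other members of the C/EBP and PAR bZIP families were examined beside the 9 genes. Of 7, 3 rose and 3 fell at 4 °C in AdC3KO, and 2 rose and 3 fell in WT (median log2 difference -0.43 and -0.17, against -0.06 and -0.03 for all genes). Over all tested genes 31% rose and 32.1% fell in AdC3KO, and 30.6% rose and 30.8% fell in WT. Nfil3, a bZIP repressor, averaged 91.1 ± 25.7 CPM in AdC3KO libraries and 74.6 ± 15.3 CPM in WT libraries at 4 °C, against 9.11 ± 0.274 and 7.92 ± 0.959 CPM at 30 °C (log2 difference 3.32 and 3.24). Dbp, a clock-controlled activator, averaged 5.89 ± 1.37 CPM in AdC3KO libraries and 6.86 ± 1.48 CPM in WT libraries at 4 °C, against 64.0 ± 19.9 and 62.5 ± 7.57 CPM at 30 °C (-3.44 and -3.18). Hlf fell too (-1.66 and -1.31), and Cebpg, a C/EBP without an activation domain, rose by 0.77 in AdC3KO and 0.83 in WT on the log2 scale.

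Of the other receptors that pair with or stand beside RXR, 10 of 13 listed genes were tested, and 4 rose and 5 fell in both AdC3KO and WT. Among all tested genes, 63% were called in AdC3KO (31% higher, 32.1% lower) and 61.4% in WT (30.6% higher, 30.8% lower). Vdr, the vitamin D receptor, averaged 13.0 ± 3.32 CPM in AdC3KO libraries and 13.3 ± 0.904 CPM in WT libraries at 4 °C, against 0.797 ± 0.177 and 0.895 ± 0.198 CPM at 30 °C (log2 difference 4.01 and 3.89). Thra, the thyroid hormone receptor alpha gene, fell by 1.57 in AdC3KO and 1.56 in WT on the log2 scale, and Rarg, a retinoic acid receptor gene, by 2.15 and 2.10. Nr1h3, which encodes the oxysterol receptor LXRα, averaged 84.99 ± 4.84 CPM in AdC3KO libraries and 80.6 ± 5.84 CPM in WT libraries at 4 °C, against 45.7 ± 1.54 and 43.8 ± 0.763 CPM at 30 °C (0.90 and 0.88). Without the libraries with muscle transcripts fewer of this list were called in both genotypes, and so were fewer of all genes, as given above. That setting leaves 1 AdC3KO library at 30 °C.

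Of 27 coregulators of these factors, 14 rose and 6 fell in AdC3KO, where 31% of all tested genes rose and 32.1% fell, and 13 rose and 5 fell in WT, where 30.6% rose and 30.8% fell. With upper-quartile scaling, under which 36.4% of all calls were higher in AdC3KO and 36.2% in WT, 11 rose and 9 fell in AdC3KO and 11 rose and 7 fell in WT. The median log2 difference was 0.30 in AdC3KO and 0.25 in WT. Ppargc1a, the coactivator PGC-1α of PPARs in thermogenesis, averaged 1109 ± 301 CPM in AdC3KO libraries and 875.2 ± 251 CPM in WT libraries at 4 °C, against 47.1 ± 6.33 and 38.6 ± 4.45 CPM at 30 °C (log2 difference 4.55 and 4.50). Ncoa1, a steroid receptor coactivator gene, rose by 2.21 in AdC3KO and 2.25 in WT on the log2 scale (adjusted p = 5.08e-10 and 4.42e-10, edgeR). Med1, the Mediator subunit that nuclear receptors contact, rose by 1.37 in AdC3KO and 1.41 in WT on the log2 scale (adjusted p = 4.92e-10 and 3.98e-10, edgeR). Without the libraries with muscle transcripts fewer coregulators were called in AdC3KO, where fewer of all genes were called as well. In WT as many were called as with all libraries, and fewer of all genes.

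Of 30 tested genes listed as PPAR targets of fatty acid oxidation and heat production, 19 rose and 3 fell in AdC3KO and 21 rose and 2 fell in WT, with a median log2 difference of 0.76 and 0.89. Cold called 63% of all tested genes in AdC3KO (31% higher, 32.1% lower) and 61.4% in WT (30.6% higher, 30.8% lower). With upper-quartile scaling, 17 rose and 5 fell in AdC3KO and 16 rose and 5 fell in WT. That scaling called 64.4% of all tested genes in AdC3KO and 63% in WT, with 36.4% and 36.2% of the calls higher. Without the libraries with muscle transcripts fewer of the list were called in AdC3KO, where fewer of all genes were called as well. In WT as many were called as with all libraries, and fewer of all genes. Ucp1, the uncoupling protein of brown fat, averaged 13730 ± 1700 CPM in AdC3KO libraries and 12690 ± 1200 CPM in WT libraries at 4 °C, against 1618 ± 370 and 1625 ± 216 CPM at 30 °C (log2 difference 3.08 and 2.96). Fgf21, a hormone gene, averaged 28.5 ± 7.37 CPM in AdC3KO libraries and 27.8 ± 9.49 CPM in WT libraries at 4 °C, against 0.0819 ± 0.0751 and 0.0956 ± 0.104 CPM at 30 °C. Acot2, a mitochondrial acyl-CoA thioesterase, rose by 3.76 in AdC3KO and 3.98 in WT on the log2 scale, and its cytosolic copy Acot1 by 4.10 and 4.74. These thioesterase genes are close copies, and how reads that align to both were counted is not given in the sources used here. Beside this list, Ppara itself had log2 differences of -0.55 in AdC3KO and -0.13 in WT, as given above.

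Of 29 tested PPAR targets of fat uptake and storage, 10 rose and 6 fell in AdC3KO and 12 rose and 6 fell in WT, while with upper-quartile scaling 9 rose and 10 fell in AdC3KO and 10 rose and 9 fell in WT. With the main scaling, 31% of all tested genes rose and 32.1% fell in AdC3KO, and 30.6% rose and 30.8% fell in WT. With upper-quartile scaling 64.4% of all tested genes were called in AdC3KO and 63% in WT, with 36.4% and 36.2% of these calls higher. The median log2 difference of the list was 0.17 in AdC3KO and 0.29 in WT. Gk, the glycerol kinase gene, averaged 2133 ± 156 CPM in AdC3KO libraries and 2174 ± 286 CPM in WT libraries at 4 °C, against 57.3 ± 3.38 and 50.9 ± 7.36 CPM at 30 °C (log2 difference 5.22 and 5.42). Plin2, which coats lipid droplets, averaged 4078 ± 303 CPM in AdC3KO libraries and 4400 ± 687 CPM in WT libraries at 4 °C, against 285.7 ± 45.0 and 298.1 ± 10.0 CPM at 30 °C (3.83 and 3.88). The genes of the enzymes that close triglyceride synthesis moved apart. Dgat1 rose by 2.27 in AdC3KO and 2.20 in WT on the log2 scale, and Dgat2 fell by 3.09 and 2.79.

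**Figure D4:**
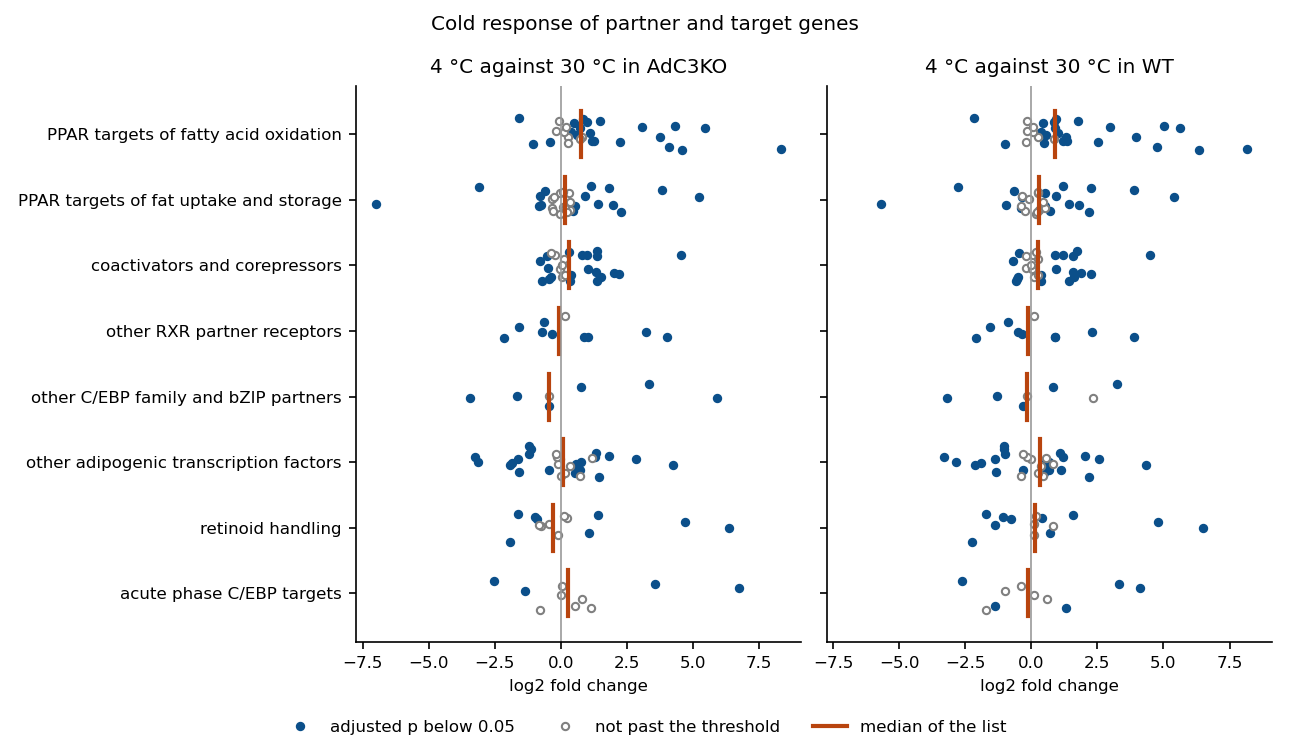
Log2 fold change at 4 °C against 30 °C of the tested genes of 8 lists, in AdC3KO (left) and WT (right), with filled points called at an edgeR adjusted p below 0.05 and a bar at the median of each list. The oxidation list has its median at 0.76 in AdC3KO and 0.89 in WT, and the other lists have medians between -0.43 and 0.32.

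Other adipogenic transcription factors split, as 11 of 30 tested rose and 10 fell in AdC3KO and in WT, and with upper-quartile scaling 11 rose and 12 fell in both. All tested genes split as well with the main scaling (31% higher and 32.1% lower in AdC3KO, 30.6% and 30.8% in WT). Upper-quartile scaling called 64.4% of all tested genes in AdC3KO and 63% in WT, with 36.4% and 36.2% of these calls higher. Stat5a, a signal transducer of adipogenesis, averaged 6.47 ± 0.958 CPM in AdC3KO libraries and 7.97 ± 0.803 CPM in WT libraries at 4 °C, against 56.8 ± 2.46 and 57.8 ± 2.01 CPM at 30 °C (log2 difference -3.13 and -2.86). Mlxipl, the glucose-sensing lipogenic factor ChREBP, fell by 1.94 in AdC3KO and 2.12 in WT on the log2 scale, and Foxo1, a factor of the insulin pathway, rose by 1.81 and 2.05. Srebf1, a lipogenic factor, averaged 26.3 ± 3.26 CPM in AdC3KO libraries and 27.1 ± 10.8 CPM in WT libraries at 4 °C, against 250.3 ± 36.9 and 268.0 ± 27.5 CPM at 30 °C. Nfix, which encodes a nuclear factor I protein, fell by 1.57 in AdC3KO and 1.32 in WT.

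Retinoid handling, which makes the ligands of the retinoic acid receptors, had 4 genes up and 4 down of 14 tested in AdC3KO and 5 up and 5 down in WT. For this list and the next, the shares over all tested genes were 31% up and 32.1% down in AdC3KO. In WT they were 30.6% up and 30.8% down. Dhrs9, a retinol-oxidising dehydrogenase, averaged 378.7 ± 36.5 CPM in AdC3KO libraries and 356.7 ± 69.1 CPM in WT libraries at 4 °C, against 4.58 ± 1.42 and 3.89 ± 1.32 CPM at 30 °C (log2 difference 6.375 and 6.505). Rbp7, a cellular retinol-binding protein gene, rose by 4.70 in AdC3KO and 4.79 in WT on the log2 scale, while Rdh10, a retinol dehydrogenase gene, fell by 1.60 and 1.70. Of 14 acute-phase genes known as C/EBP targets, 10 were tested, and 2 rose and 2 fell in AdC3KO and 3 rose and 2 fell in WT, and with upper-quartile scaling 2 rose and 2 fell in AdC3KO and 2 rose and 5 fell in WT. The called genes averaged at most 1.59 CPM in any group, while Hp, the haptoglobin gene, averaged 623.6 ± 145 CPM in AdC3KO libraries and 580.9 ± 78.7 CPM in WT libraries at 4 °C, against 612.2 ± 88.3 and 757.6 ± 38.5 CPM at 30 °C, and was not called. Saa3, a serum amyloid gene that rose in both genotypes, averaged 1.59 ± 0.652 CPM in AdC3KO libraries and 1.33 ± 0.343 CPM in WT libraries at 4 °C, against 0.130 ± 0.0551 and 0.129 ± 0.0442 CPM at 30 °C. Without the libraries with muscle transcripts fewer acute-phase genes were called in both genotypes, as were fewer of all genes. With upper-quartile scaling, the C/EBP and PAR bZIP list had 3 higher and 4 lower in AdC3KO and 2 higher and 3 lower in WT. The RXR partners had 3 higher and 5 lower and the retinoid genes 4 higher and 5 lower in both genotypes. That scaling called 64.4% of all tested genes in AdC3KO and 63% in WT, with 36.4% and 36.2% of the calls higher. Over all 8 lists, 0 of 157 tested genes were called between AdC3KO and WT at 4 °C by edgeR or DESeq2, with 11 at an unadjusted p below 0.05, 0 were called at 30 °C, with 1, and 0 for the interaction, with 3.

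For each of the 9 genes, the 3 most alike of 9363 other genes (mean of at least 5 CPM) were sought by Pearson's r of log2 CPM over the 14 libraries. These correlations share the libraries and, for the genes that cold moved, the step between the temperatures, so r within the 8 cold and then within the 6 warm libraries is given for each gene, as a description. Cebpa was most like Parp1, a DNA repair enzyme gene (r = 0.95 within cold and 0.62 within warm libraries), Adora1 (0.92 and 0.37) and Ppp1r9a (0.86 and 0.50), with r of 0.991 to 0.996 over all 14. Cebpb was most like Lmbrd1 (0.83 and 0.84), Skil (0.80 and 0.76) and Mapkapk2 (0.89 and 0.58), with 0.993 to 0.994 over all 14. Cebpd was most like Usp4 (0.90 and 0.98), Vmp1 (0.92 and 0.80) and Lonp2 (0.91 and 0.92), with 0.992 to 0.995. For these 3 members the within-temperature values ran from 0.37 to 0.98, and Cebpa held its likeness better among cold than among warm libraries.

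Pparg was most like Ppp2r5a (0.79 and 0.95), Sfr1 (0.86 and 0.92) and Paip1 (0.80 and 0.89), with 0.963 to 0.973 over all 14. Ppara was most like Iffo2 (0.83 and 0.75), Itpk1 (0.78 and 0.71) and Chd9 (0.77 and 0.81), with 0.827 to 0.832. Ppard was most like Nbea (0.58 and 0.92), Sptbn1 (0.79 and 0.90) and Mpdz (0.75 and 0.84), with 0.807 to 0.857. The values of Ppara and Ppard over all 14 libraries were thus lower than those of the C/EBP genes and Pparg. Rxra was most like Clmn (0.89 and 0.96) and the collagen VI genes Col6a2 (0.87 and 0.91) and Col6a3 (0.79 and 0.89), with 0.930 to 0.955. Rxrb was most like Gas2l1 (0.89 and 0.69), Pcbp4 (0.85 and 0.68) and Pon2 (0.82 and 0.70), with 0.798 to 0.823. Genes like Rxrg were Zmat2 (0.94 and 0.58) and Scamp2 (0.87 and 0.85), with 0.848 to 0.863. The 9 genes themselves were left out of the search.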

How the data were processed

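Brown adipose tissue of 14 mouse samples was analysed. Reads were trimmed with Trimmomatic, aligned to GRCm38/mm10 with STAR and counted with HTSeq, per the submitters' processing notes and the design text; no version or strand setting is given in the sources used here. Deposited values are raw whole-number counts of reads per gene. The 5 HTSeq summary lines were left out; reads outside genes were 5.95% to 8.19% and ambiguous reads 5.53% to 6.03% of a library. GENCODE named 55230 of 55471 identifiers.

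Counts were analysed in R 4.3.3 with edgeR 4.0.16 (filterByExpr at a minimum count of 10, TMM, robust quasi-likelihood fit of 4 group means), with adjusted p below 0.05 over 15949 genes. DESeq2 1.42.0, other scalings and filters, replicate blocks and left-out libraries were tried as alternatives. The common biological coefficient of variation was 0.20. CPM use TMM-scaled library sizes. Replicate libraries differed beyond sampling noise (chi-square per degree of freedom 16.9 to 83.5 over 18 pairs). Whether every library came from its own animal is not stated in the labels, and p-values then cover only library-to-library spread, which may be technical. The edgeR step was tested on simulated data with few changed genes and the same spread for every gene. That does not test the scaling under a response as broad as the one to cold.

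The 9 genes, the lists and the settings were chosen with earlier results of these data known. Named genes were all 9 members, up to 4 called genes of lowest adjusted p per list and comparison (the 2 most abundant where none was called), the 3 most alike genes of each member, and Clstn3; overlapping genes are named beside them. Not every gene the rule names is given, and 1 gene alike to Rxrg is not reported here. List counts under other settings were added after seeing the data.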

Additional observations from a re-analysis of the deposited data

Results flagged for a closer look

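Of 36 sets of 4 cold libraries examined (CPM and family share of each member in each genotype), 2 held a library that stood apart from the others, and chance alone would flag about 1 in 20. Cebpa in AdC3KO at 4 °C had its lowest value in replicate 2, at 68.02 CPM, with 107.2 to 114.8 CPM in the others, a gap of 0.838 of the whole range. Without that library the log2 difference of AdC3KO from WT at 4 °C was -0.33, against -0.50 with it. Ppard in AdC3KO at 4 °C had its lowest value in replicate 3, at 22.48 CPM, with 24.2 to 24.4 CPM in the others, a gap of 0.894 of a narrow range. This library is the one with the highest skeletal muscle sum (494.1 CPM), and the part of that tissue in the value was not tested.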

How the results depend on the processing

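The cold calls of Cebpa, Cebpb and Cebpd held in all 24 alternatives in both genotypes, with log2 differences of -2.93 to -2.53, 2.61 to 3.05 and 1.93 to 2.36 in AdC3KO and -2.48 to -2.15, 2.48 to 2.94 and 2.06 to 2.56 in WT. Pparg held in 23 of 24 in AdC3KO and in 24 in WT, Ppara in AdC3KO in 20, and Rxra in 23 in AdC3KO and 14 in WT. Without the libraries with muscle transcripts, members called in AdC3KO numbered 3, called RXR partner receptors 5 and coregulators 13 in AdC3KO, and acute phase genes 1 in AdC3KO and 3 in WT; this setting has fewer libraries, and the cause was not tested. Uncalled values changed sign as follows. AdC3KO against WT at 4 °C, Pparg was 0.003 with DESeq2, RLE and upper-quartile scaling, 0.001 without a filter and -0.086 to 0.136 over single left-out libraries; Rxrg was -0.003 in the compared groups alone, -0.14 without muscle-rich libraries and -0.079 to 0.155 over left-out libraries; Rxrb was 0.028 without interferon-high libraries and -0.118 to 0.099 over left-out ones; Ppard was 0.005 and Cebpd -0.19 without muscle-rich libraries, and Cebpd -0.09 to 0.28 over left-out ones. AdC3KO against WT at 30 °C, without the libraries with muscle transcripts Rxrb was -0.017 and Cebpb 0.38. Over left-out libraries Cebpa ranged there from -0.087 to 0.046, Pparg from -0.12 to 0.15, Rxra from -0.066 to 0.1 and Cebpb from -0.21 to 0.19. In the cold in AdC3KO, Ppard was -0.16 with upper-quartile scaling, -0.016 without a filter, -0.078 with a mean of at least 5 CPM and -0.013 to 0.17 over left-out libraries. There Rxrg was -0.10 and -0.025 with that scaling and that mean. Rxrb was 0.018 without the libraries with muscle transcripts and -0.139 to 0.068 over left-out ones. In the cold in WT, Ppard was -0.013 with upper-quartile scaling. There Rxrb was -0.21 with that scaling, -0.063 without a filter and -0.13 with a mean of at least 5 CPM. Ppara was 0.016 without the libraries with muscle transcripts and -0.26 to 0.003 over left-out ones. For the interaction, Cebpb was -0.28 without the libraries with muscle transcripts. Over left-out libraries the interaction ranged from -0.24 to 0.14 for Cebpd, -0.16 to 0.11 for Pparg and -0.161 to 0.048 for Rxrb. Upper-quartile scaling left 36.4% of calls higher in AdC3KO and 36.2% in WT, against 49.1% and 49.9%.

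Of the shares, without length correction the cold difference of Ppard was -0.874 points (adjusted p = 0.063) and the genotype difference of Rxrb 0.564. Over left-out libraries the genotype differences ranged from -1.4 to 0.959 for Rxrb, -0.0491 to 0.132 for Ppard, -1.84 to 2.06 for Ppara, -2.07 to 1.86 for Pparg, -4.33 to -2.42 for Cebpa (adjusted p = 0.0257 without WT 30 °C replicate 3), 2.21 to 4.27 for Cebpb (adjusted p = 0.0289 without it) and -0.0544 to 0.213 for Cebpd, and the cold differences from -0.987 to 1.37 for Rxrb, -0.558 to -0.377 for Ppard and 4.28 to 6.63 for Rxrg. The cold call of the Ppard share was lost without AdC3KO 30 °C replicates 1 or 2 or AdC3KO 4 °C replicates 1 or 3 (adjusted p of 0.0514 to 0.0931).

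Deviations of same-numbered libraries from their group means correlated with r of -0.32 to 0.04 by title and -0.27 to 0.14 by description. The labels do not say what a replicate number marks, and these r cannot settle whether samples were paired. With the title number as a replicate block 6 members were called in AdC3KO and 4 in WT in the cold. Of all tested genes 61.4% and 59.2% were called there. With the description number 6 and 5 members were called, against 61.5% and 53.1% of all tested genes. Between genotypes 0 members were called with either block, against at most 0.0564% of all tested genes. Rxra in WT was lost in both (adjusted p = 0.0921 and 0.17, edgeR). Ppard in WT was called with the description number (0.40, adjusted p = 0.0261, edgeR). Uncalled signs changed in the title block for Rxra (0.000) and Cebpb (0.005) between genotypes at 30 °C and Rxrb in WT in the cold (-0.033), and in the description block for Ppara at 30 °C (-0.078), Pparg (0.025) and Rxrb (0.013) between genotypes at 4 °C, Rxrb in WT in the cold (-0.12) and the interaction of Pparg (0.005). The interaction has no value in the compared groups alone. Counts per member and group ran from 365 for Cebpd in WT at 30 °C upward, which limits Cebpd most.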
